A study of Homo sapiens with 6 samples.

Results

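The human genes ESRG, LINC-ROR, LINC00678, ABHD12B and HHLA1 each give rise to a transcript that is driven by, or holds, a copy of the endogenous retrovirus HERV-H. They were chosen by name for this link, with earlier results of these data known, and they are 5 of 48183 gene names in the count table. Each had 1 identifier in the table, and all 5 passed the filter on low counts. ESRG, LINC-ROR and LINC00678 are long noncoding RNA genes, whereas ABHD12B encodes a member of the abhydrolase enzyme family and HHLA1 encodes a protein named for its association with the HERV-H repeat.

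HERV-H entered the primate germ line as a retrovirus, and its copies persist as an internal stretch between a pair of long terminal repeats, known as LTR7. The repeat carries promoter signals, and in human pluripotent cells many copies are transcribed into long noncoding RNA or are spliced onto neighbouring genes. Pluripotent cells exist in a naive state, akin to the epiblast before implantation, and in a primed state, akin to the epiblast after it, and transcription from this repeat family is known to differ between them.

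Bulk RNA-seq was performed on 6 libraries of human embryonic stem cells, 4 naive and 2 primed. All carried the EOS-GFP reporter, which reads the distal enhancer of POU5F1. The naive libraries were 2 of cells induced with AICAR, an activator of the energy sensor AMPK, 1 of cells induced with VPA (valproic acid, a histone deacetylase inhibitor) and 1 of cells in which doxycycline switched on a constitutively active p38 kinase (CA-p38). The primed libraries were 1 of the untreated EOS line, the parent of the AICAR and VPA cells, and 1 of the untreated CA-p38 EOS line, the parent of the CA-p38 cells. The CA-p38 transgene was thus present in both the naive and the primed CA-p38 library. The study removed AICAR and doxycycline and then expanded the cells, and its legends place all naive libraries at later passages. The levels given here are thus not those of cells under AICAR or doxycycline. The sample labels name the line H1, whereas the methods of the study name H9. Naive cells were recultured in PXGL medium on mouse feeder cells and sorted for CD75 and SUSD2, whereas primed cells grew without feeders in StemFit AK02N, so that state, medium, feeder and sort cannot be told apart. The methods and legends of the study place the AICAR libraries at consecutive passages after induction, without saying which is which or whether they came from separate inductions. The 4 naive libraries may thus hold fewer than 4 independent inductions, and p-values here measure only the spread between these libraries.

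Total counts ranged from 46823699 to 54277064 per library. A gene with no count could have had up to 0.0553 to 0.0641 CPM (counts per 1000000 counts of the library), the limit that 3 counts set. Of 8 naive markers, all 8 were higher in the naive libraries (summed level 5066 to 5989 CPM against 8.50 and 12.3 CPM), one of them SUSD2, which the sort had used. All 7 primed markers were lower (50.5 to 63.7 CPM against 2923 and 3507 CPM), and both sets matched the labelled states. Summed fibroblast markers reached 30.9 to 72.9 CPM in the naive and 191 and 209 CPM in the primed group, with 4 of 7 lower and none higher in naive cells. The 3 that did not pass the threshold had higher means in the naive group. These were COL3A1 (8.09 against 3.47 CPM), DCN (0.987 against 0.538 CPM) and LUM (0.370 against 0.0810 CPM). LUM was at 0 in AICAR 2 and VPA and at 1.17 CPM in CA-p38 naive. Summed neural markers reached 156 to 196 CPM in the naive and 120 and 139 CPM in the primed group, with TUBB3 higher, MAP2 lower and 3 of 5 not past the threshold. Most of this sum was TUBB3 alone, at 152.7 to 194.5 CPM in the naive and 112.6 and 130.5 CPM in the primed group. PAX6, SOX1 and NEUROD1 were at or below 1.68 CPM in every library. Their part in the results below was not tested.

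On GRCh38 the genes lie at chr3:54632122-54639857 (ESRG, minus strand), chr18:57054558-57072119 (LINC-ROR, minus strand), chr11:27617626-27634627 (LINC00678, minus strand), chr14:50872053-50904970 (ABHD12B, plus strand) and chr8:132061480-132111159 (HHLA1, minus strand). To see what the members share in the genome, a 458-base sequence was taken that ESRG holds as a direct repeat around its HERV-H copy. It was searched for in each member and the 10000 bases upstream of it, with at least 300 aligned bases. All 5 members held a pair of copies there on their own strand and none on the other. Identity between the upstream copies of different members ran from 92.3% (LINC-ROR and LINC00678) to 96.5% (ESRG and HHLA1). The unit from the first to the last base of the pair spanned 5727 bases in ESRG, 7856 in LINC-ROR, 5857 in LINC00678, 3721 in ABHD12B and 5767 in HHLA1. The downstream copy of ABHD12B stood apart, with 80.1% identity to the ESRG repeat, whereas the downstream copies of the others had 93.5% to 97.4%.

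The members differed in where the repeat lies. The annotated gene start of all 3 noncoding genes fell inside the upstream copy, at base 352 of the ESRG repeat in ESRG, base 389 in LINC-ROR and base 305 in LINC00678. For LINC-ROR, 5 of 8 annotated transcripts started inside the copy, and the others started downstream of it. In ABHD12B the upstream copy began 21109 bases downstream of the gene start, and 1 of 9 annotated transcripts, ABHD12B-206, started inside it. In HHLA1 it began 25157 bases downstream, and none of 3 annotated HHLA1 transcripts started in it. A readthrough gene that joins HHLA1 to its neighbour OC90 did start there. The share of exon bases that lay within the unit was 71.7% in ESRG, 25.5% in LINC00678, 16.4% in ABHD12B, 16.0% in HHLA1 and 10.5% in LINC-ROR.

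**Figure D1:**
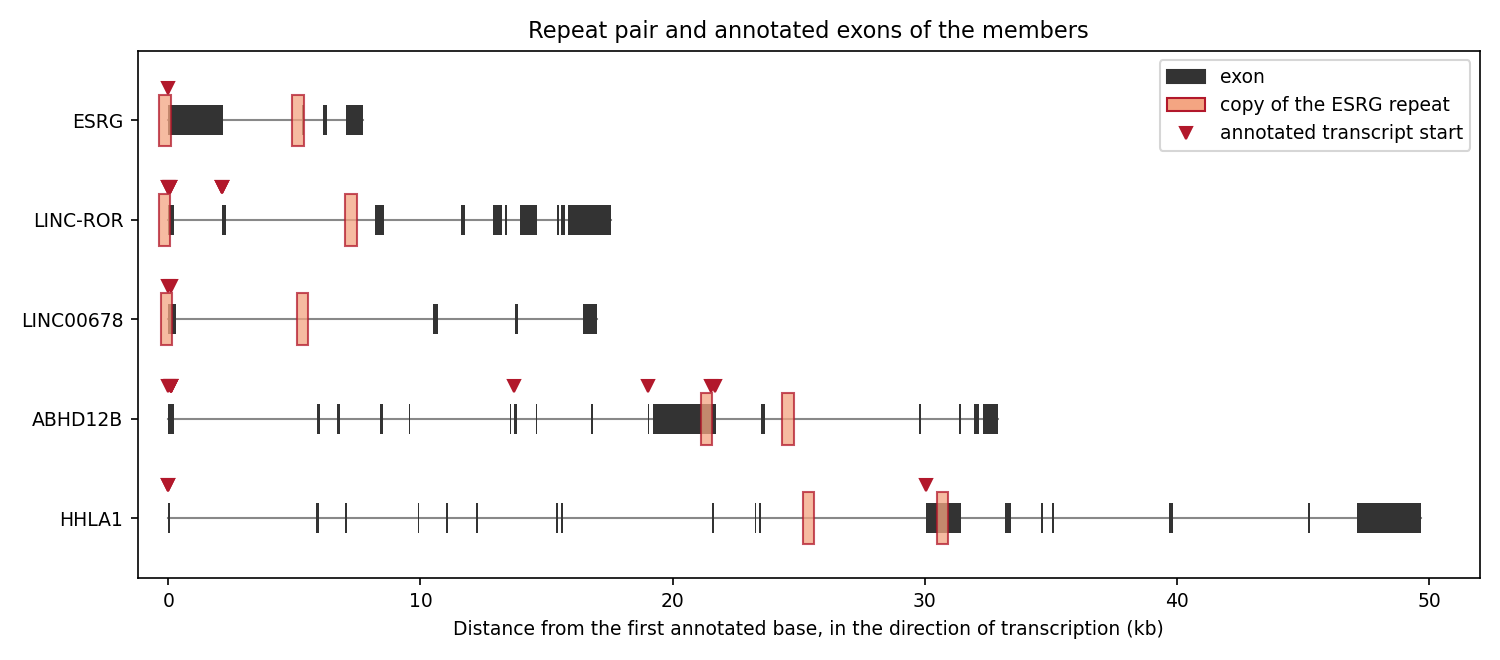
Exons (dark blocks), copies of the ESRG repeat (orange blocks) and annotated transcript starts (triangles) of the 5 members, with the distance from the first annotated base in kb in the direction of transcription on the horizontal axis. The repeat pair covers the start of ESRG, LINC-ROR and LINC00678, whereas it lies 21109 bases inside ABHD12B and 25157 bases inside HHLA1.

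Short motifs were sought around the annotated starts on GRCh38, with the transcripts of GENCODE release 44. In windows from 250 bases before to 50 bases after a start, TATAAA and CCACCC (sought on both strands) were present at ESRG, LINC-ROR, LINC00678, ABHD12B-206, HHLA1 and the HHLA1-OC90 readthrough. The main start of ABHD12B held neither, but held GGGCGG. None held ATGCAAAT, the octamer bound by POU factors. Among 35116 RefSeq promoters of the same length on GRCh38.p14, 11.5% held TATAAA, 34.3% CCACCC, 45.0% GGGCGG and 1.77% ATGCAAAT. The starts of ESRG, LINC-ROR, LINC00678, ABHD12B-206 and the readthrough lie in copies of the same repeat. Their windows are thus not independent of each other, and enrichment over all promoters was not tested.

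Between the states, 4 of the 5 members were lower and 1 was higher in the naive libraries, judged by the quasi-likelihood test of edgeR and a Benjamini-Hochberg adjusted p under 0.05. ESRG, HHLA1, LINC-ROR and LINC00678 were lower, LINC00678 by far the most, and ABHD12B was higher. Over all 26497 genes tested, 27% were lower and 26% were higher. The naive and primed libraries did not overlap for any of the 5 members, and the same held for 32.1% of all genes in the lower and 32.9% in the higher direction. The median log2 fold change was -0.90 over the members and 0.11 over all genes tested. In bulk libraries, fewer cells with a transcript and less of it per cell cannot be told apart.

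ESRG, the most abundant member per length in every library, was 1482 and 1640 CPM (scaled by TMM, as are all CPM values of genes here) in AICAR 1 and 2, 1786 CPM in CA-p38 naive and 1321 CPM in VPA. It was 2885 CPM in EOS primed and 2934 CPM in CA-p38 primed. The naive libraries were all lower than both primed ones. The means were 1557 ± 200 CPM (SD, n = 4) and 2909 ± 34.9 CPM (SD, n = 2), with a log2 fold change of -0.90 (SE 0.11, edgeR adjusted p = 1.3e-05). ESRG alone took 0.134% to 0.182% of all counts in naive libraries and 0.275% and 0.281% in primed ones.

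LINC-ROR, named as a regulator of reprogramming, was the least abundant. It was 2.85 and 2.42 CPM in AICAR 1 and 2, 3.82 CPM in CA-p38 naive, 4.56 CPM in VPA, 8.80 CPM in EOS primed and 7.38 CPM in CA-p38 primed. These values rest on 120 to 239 counts in naive and 361 and 436 counts in primed libraries. The AICAR libraries were the lowest, and the groups did not overlap. The means were 3.41 ± 0.966 CPM (SD, n = 4) and 8.09 ± 1.01 CPM (SD, n = 2), with a log2 fold change of -1.25 (SE 0.27, edgeR adjusted p = 0.0018).

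LINC00678 differed most between the states. It was 12.8 and 12.1 CPM in AICAR 1 and 2, 13.0 CPM in CA-p38 naive and 12.7 CPM in VPA, against 230 CPM in EOS primed and 183 CPM in CA-p38 primed. The naive libraries lay close together, with a coefficient of variation of 3.11%, although 3 treatments had induced them. The means were 12.7 ± 0.393 CPM (SD, n = 4) and 207 ± 33.4 CPM (SD, n = 2), and primed cells were 16.3-fold higher (log2 fold change -4.03, SE 0.12, edgeR adjusted p = 4.23e-11).

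ABHD12B moved the other way. It was 92.0 and 84.1 CPM in AICAR 1 and 2, 89.5 CPM in CA-p38 naive and 138 CPM in VPA, against 23.7 CPM in EOS primed and 18.1 CPM in CA-p38 primed. VPA was the highest, and the other 3 naive libraries lay together. The means were 100.9 ± 25.04 CPM (SD, n = 4) and 20.9 ± 3.96 CPM (SD, n = 2), and naive cells were 4.84-fold higher (log2 fold change 2.27, SE 0.21, edgeR adjusted p = 1.3e-06). Without the VPA library the log2 fold change was 2.07. The counts are per gene, so transcripts from the repeat and from the main start of ABHD12B cannot be told apart.

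HHLA1 had the smallest difference of the 5. It was 567 and 668 CPM in AICAR 1 and 2, 709 CPM in CA-p38 naive, 694 CPM in VPA, 1017 CPM in EOS primed and 1184 CPM in CA-p38 primed. AICAR 1 was the lowest, and all naive libraries were below both primed ones. The means were 659 ± 64.1 CPM (SD, n = 4) and 1100.0 ± 118 CPM (SD, n = 2), with a log2 fold change of -0.74 (SE 0.11, edgeR adjusted p = 6.66e-05).

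**Figure D2:**
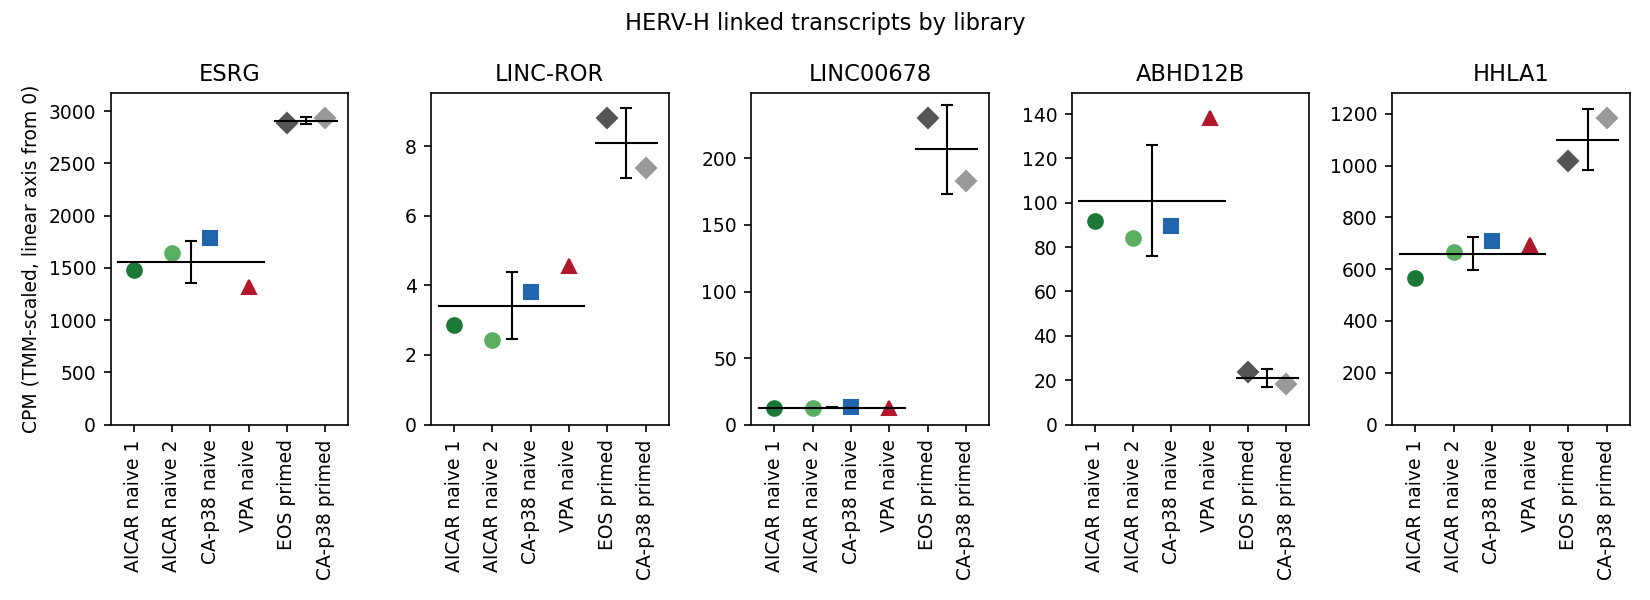
TMM-scaled CPM of each member in the 6 libraries, on linear axes that start at 0 and differ between panels. Symbols are single libraries, horizontal lines are the means of 4 naive and 2 primed libraries and bars are SD, and the naive libraries lie below the primed ones for every member but ABHD12B.

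HHLA1 shared sequence with another gene. Of 5489 windows of 50 bases in its annotated transcripts, 6.25% were also in the HHLA1-OC90 readthrough gene (ENSG00000258417), which shares 390 exon bases with it, and reads from these could be placed in either. The naive libraries had 11.01 to 13.2 CPM of the readthrough and the primed ones 33.1 and 34.5 CPM (log2 fold change -1.49, SE 0.14, edgeR adjusted p = 1.86e-06, identifiers kept apart). The shares of shared windows were 0.0647% for ESRG, 0.432% for LINC-ROR, 0 for LINC00678 and 1.70% for ABHD12B. The exons of the members thus shared few such windows with annotated transcripts of other genes, although their repeats are alike. Only matches without a mismatch were counted, and repeat copies outside annotated transcripts were not searched. Whether reads from such copies were counted in a member was not tested.

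Levels can be set side by side between members only per length, as CPM per kb of annotated exon (RPKM). In primed libraries the order was ESRG (926 ± 11.1 RPKM, SD, n = 2), HHLA1 (202 ± 21.7 RPKM), LINC00678 (178 ± 28.7 RPKM), ABHD12B (4.59 ± 0.870 RPKM) and LINC-ROR (2.08 ± 0.259 RPKM). HHLA1 and LINC00678 did not differ beyond their spread, since LINC00678 at 198 RPKM was above HHLA1 at 187 RPKM in EOS primed and below it, at 157 against 218 RPKM, in CA-p38 primed. The other neighbours in this order did not overlap. In naive libraries the order was ESRG (496 ± 63.8 RPKM, SD, n = 4), HHLA1 (121 ± 11.8 RPKM), ABHD12B (22.2 ± 5.50 RPKM), LINC00678 (10.9 ± 0.338 RPKM) and LINC-ROR (0.877 ± 0.248 RPKM), with no overlap between neighbours. ABHD12B and LINC00678 thus changed places between the states. LINC00678 was 38.04 and 39.6 times the level of ABHD12B per length in the primed libraries, whereas ABHD12B was 1.76 to 2.77 times that of LINC00678 in the naive ones. ESRG stayed 3.30 to 4.92 times the level of HHLA1 in all 6 libraries.

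**Figure D3:**
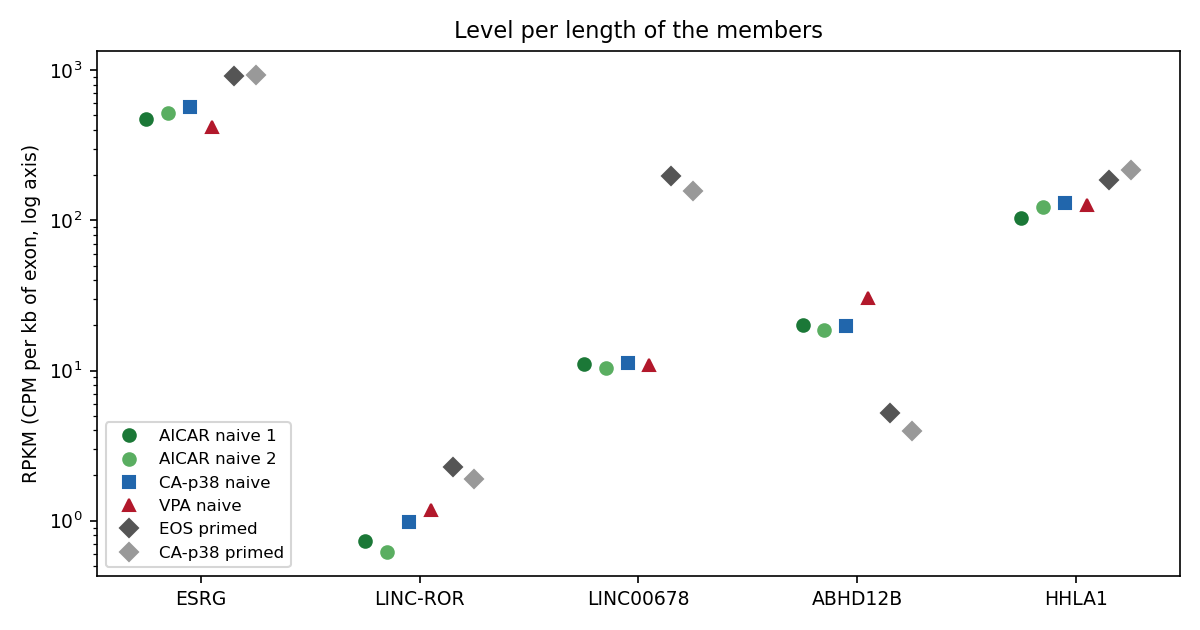
RPKM of the members in each of the 6 libraries, on a log axis. ESRG is the highest and LINC-ROR the lowest in every library, and LINC00678 and ABHD12B change places between naive and primed libraries.

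Each induced library was also set against its own primed parent, which gives the size of the difference for each induction. With 1 library on each side there is no replicate check, and the 95% exact binomial intervals cover counting error only. All 4 folds were below 1 for ESRG, LINC-ROR, LINC00678 and HHLA1, and all 4 were above 1 for ABHD12B. These directions follow from the lack of overlap between the groups given above, and are no further support. Such a lack of overlap was found in 32.1% of all genes tested in the lower and 32.9% in the higher direction. The folds over EOS primed share that library, so they are not independent of each other.

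For LINC00678, the parent was 18.0-fold higher than AICAR 1, 19.0-fold higher than AICAR 2, 18.1-fold higher than VPA and 14.1-fold higher than CA-p38 naive. For ABHD12B the induced library was 3.88 times its parent in AICAR 1 (interval 3.65 to 4.14), 3.55 times in AICAR 2 (3.33 to 3.80), 5.84 times in VPA (5.49 to 6.21) and 4.95 times in CA-p38 (4.61 to 5.33). These were the only members past 2-fold in all 4 libraries. At least 2-fold lower levels were found in 21.3% of tested genes in AICAR (mean of both libraries), 21.3% in VPA and 20.6% in CA-p38, and at least 2-fold higher levels in 23.9%, 25.1% and 25.1%.

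ESRG was 0.514 and 0.568 times its parent in AICAR 1 and 2, 0.458 times in VPA and 0.609 times in CA-p38, and passed 2-fold in VPA. LINC-ROR was 0.325 times its parent in AICAR 1 (0.268 to 0.390) and 0.275 times in AICAR 2 (0.222 to 0.336), but 0.519 times in VPA (0.441 to 0.608) and 0.518 times in CA-p38 (0.432 to 0.618). The intervals of the AICAR libraries did not meet those of the other inductions, although 1 library each of VPA and CA-p38 gives no test of that difference. HHLA1 was 0.557 and 0.657 times its parent in AICAR 1 and 2, 0.683 times in VPA and 0.599 times in CA-p38, and passed 2-fold in none.

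**Figure D4:**
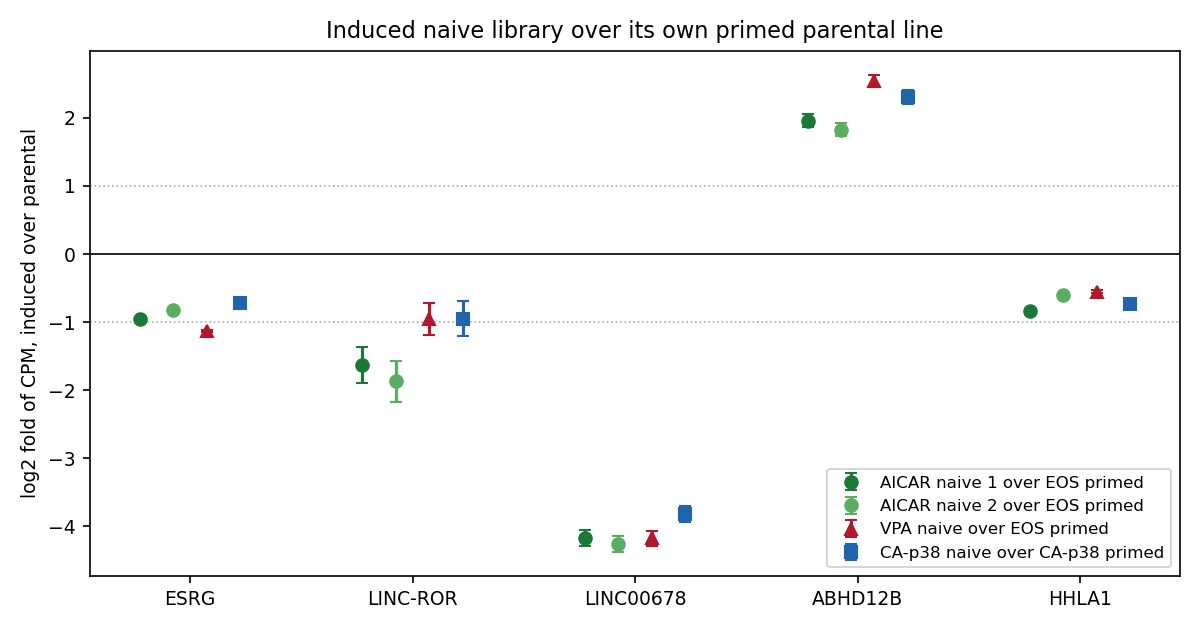
log2 fold of each induced naive library over its own primed parental line for the 5 members, with 95% exact binomial intervals that cover counting error only and dotted lines at 2-fold. LINC00678 lies below -3.8 in all 4 libraries and ABHD12B above 1.8.

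The parental lines differed from each other by less than the states did. The ratio of EOS primed over CA-p38 primed was 0.983 for ESRG (interval 0.976 to 0.990), 1.19 for LINC-ROR (1.03 to 1.38), 1.26 for LINC00678 (1.22 to 1.29), 1.31 for ABHD12B (1.20 to 1.43) and 0.859 for HHLA1 (0.849 to 0.869). Within the naive libraries, the coefficient of variation of CPM was 3.11% for LINC00678, 9.72% for HHLA1, 12.9% for ESRG, 24.8% for ABHD12B and 28.3% for LINC-ROR. VPA gave the highest naive value for ABHD12B and LINC-ROR and the lowest for ESRG.

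The genes next to the members were read from the same fit. The nearest protein-coding gene on each side that does not overlap the member was taken, which gave 10 genes. Of these, 5 were lower in naive cells, none was higher, 3 did not pass the threshold and 2 (BOD1L2 and OC90) were too low to test. Of 4 genes that overlap a member, 1 was lower, 1 was higher and 2 did not pass. Over all genes tested, 27% were lower and 26% higher. LINC-ROR and its neighbour WDR7 were both lower (WDR7 had a mean of 10.96 CPM in the naive group and 26.7 CPM in the primed group, log2 fold change -1.29, edgeR adjusted p = 5.41e-05). LINC00678 lay 20266 bases from BDNF, a neurotrophin gene, which was 2.45 and 6.07 CPM (log2 fold change -1.31, edgeR adjusted p = 0.0055). LIN7C on its other side had a log2 fold change of 0.20 (edgeR adjusted p = 0.31).

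The nearest protein-coding genes that do not overlap ABHD12B were lower in naive cells, where ABHD12B was higher. NIN, a centrosome gene, had a log2 fold change of -0.62 (edgeR adjusted p = 0.0025) and TRIM9 one of -4.51 (edgeR adjusted p = 2.57e-05). PYGL, the liver form of glycogen phosphorylase, overlaps ABHD12B on the opposite strand with no shared exon base, and was higher, at 226 against 69.6 CPM (log2 fold change 1.70, edgeR adjusted p = 9.61e-07). ESRG lies on the opposite strand within CACNA2D3, a calcium channel subunit gene, which did not pass the threshold (4.11 and 3.34 CPM, log2 fold change 0.30, edgeR adjusted p = 0.36), nor did its neighbours SELENOK and LRTM1. KCNQ3, a potassium channel gene 9702 bases from HHLA1, was lower (log2 fold change -2.07, edgeR adjusted p = 0.0089), and OC90 on the other side stayed at or below 0.210 CPM in every library.

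Among 8 other transcripts tied to HERV-H, 4 were lower and 2 higher in naive cells, 1 did not pass the threshold and OC90 was not tested. CALB1, a calcium-binding protein gene, ran from 17.7 to 23.9 CPM in the naive libraries, against 68.8 and 76.1 CPM (log2 fold change -1.86, edgeR adjusted p = 1.43e-07). LINC00458 was lower by 1.49 on the log2 scale. HHLA2, an immune checkpoint ligand of the B7 family, was 4.07 to 6.33 CPM against 0.184 and 0.363 CPM, and higher, as ABHD12B was (log2 fold change 4.21, edgeR adjusted p = 1.57e-06). The median over the 7 tested was -0.41, and over all genes tested 27% were lower and 26% higher.

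Of 10 factors that bind LTR7 or take part in its activation, 3 were higher, 5 were lower and 2 did not pass the threshold in naive cells. Their median log2 fold change was -0.60, and over all genes tested 27% were lower and 26% higher. The naive factors KLF4 and TFCP2L1 were higher, by 8.26 and 4.63 on the log2 scale, and NANOG by 1.33. SOX2 was lower (-0.87), as were SP3 (-1.14), the acetyltransferase gene CREBBP (-1.05) and the Mediator subunit genes MED12 (-3.69) and MED6. POU5F1 ran from 1472 to 1622 CPM in the naive libraries, against 1646 and 1711 CPM (log2 fold change -0.12, edgeR adjusted p = 0.22).

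Of 20 genes that repress endogenous retroviruses or maintain DNA methylation, 10 were lower, 2 were higher and 8 did not pass the threshold. Their median log2 fold change was -0.29, and over all genes tested 27% were lower and 26% higher. The corepressor gene TRIM28 ran from 948 to 1015 CPM in the naive libraries, against 959 and 963 CPM (log2 fold change 0.02, edgeR adjusted p = 0.86), and SETDB1, its histone methyltransferase partner, had a log2 fold change of -0.11 (edgeR adjusted p = 0.45). The DNA methyltransferase genes DNMT1 (-1.70) and DNMT3B (-1.95) and the heterochromatin protein gene CBX5 (-2.84) were lower. ZNF534, a KRAB zinc finger gene, ran from 31.7 to 39.2 CPM in the naive libraries, against 0.0606 and 0.0818 CPM.

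The members were then set beside all genes that start in a copy of their repeat, a set drawn up after the members' values had been seen and given with no test of the set. Of 62 annotated genes with a transcript start in a copy of the ESRG repeat of at least 300 aligned bases, 45 were in the count table, with ESRG, LINC-ROR, LINC00678 and ABHD12B among them. Without these 4 members, 40 of 41 could be tested, with identifiers kept apart. Of these, 25 were lower in naive cells, 5 were higher and 10 did not pass the threshold, and the median log2 fold change was -0.93. CALB1, LINC00458, RPL39L and the HHLA1-OC90 readthrough, given above or counted in the lists, are among the 41. Over all 29925 identifiers tested, 26.4% were lower and 25.6% higher, with a median of 0.12. Of the 31 long noncoding RNA genes among the 40, 20 were lower and 2 higher, whereas of all 7286 long noncoding RNA identifiers tested 10.6% were lower and 24.9% higher.

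The members in the set have copies of over 90% identity to the ESRG repeat. Of the 14 other tested genes above that value, a cut set after the values were seen, 5 were lower, 2 were higher and 7 did not pass the threshold (median log2 fold change -0.32). LINC00678, at -4.05 with identifiers apart, was below all 14, whose lowest value was -2.86, and ABHD12B, at 2.26, was above all of them, whose highest value was 2.11. This did not hold below 90% identity. There IFIT2 (-4.06), AL591030 (-4.12) and AC022140 (-4.27) were also below LINC00678, and IGFL2-AS1 (2.75) was above ABHD12B. Of 19 tested genes at 80% to 90% identity, 17 were lower and 1 was higher (median -2.26). Of 7 tested under 80%, 3 were lower and 2 higher (median -0.96).

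The lowest value of the set belonged to a noncoding gene listed as AC104257 (ENSG00000253507), whose copy had 84.9% identity to the ESRG repeat. Its mean was 1.52 CPM in the naive group and 420 CPM in the primed group (log2 fold change -8.13, edgeR adjusted p = 1.76e-11). Close to ABHD12B in direction and size was AC064802 (ENSG00000254339), at 107 and 24.5 CPM (log2 fold change 2.11, edgeR adjusted p = 1.96e-07). TFPI, a coagulation inhibitor gene, was also higher (0.75, edgeR adjusted p = 0.0051).

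**Figure D5:**
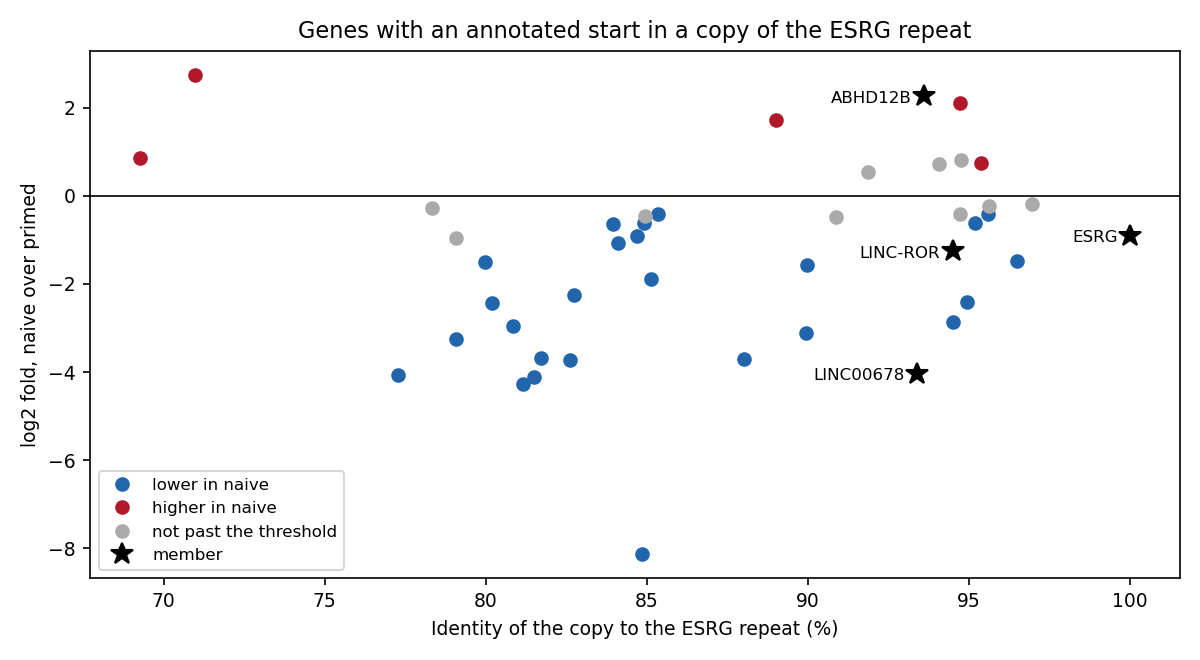
log2 fold change between naive and primed libraries of genes with an annotated start in a copy of the ESRG repeat, against the identity of that copy to the ESRG repeat in percent, with colours for the edgeR call and stars for members. Genes past the threshold lie on both sides of 0, more of them below it, and ABHD12B is the highest and LINC00678 the lowest gene above 90%.

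The pattern of each member over the 6 libraries was compared with that of 18065 other genes of at least 1 CPM on average, by the Euclidean distance between log2 CPM values centred per gene. ESRG was closest to USP5 (0.13), EXOC6 (0.13) and CHD6 (0.13). HHLA1 was closest to DPY19L2P2 (0.07), PDPR (0.10) and YTHDC2 (0.13). LINC-ROR was closest to KHK (0.17), DTX3 (0.21) and AACSP1 (0.24). LINC00678 was closest to RCOR2 (0.16), FGD5 (0.21) and DMKN (0.34). ABHD12B was closest to KLK11 (0.23), CCDC78 (0.25) and AC068389 (0.28). Every one of these was nearer than any other member. They were picked from 18065 genes, far more than there are members, so this says nothing on how alike the members are. The closest pair of members was ESRG and HHLA1, at 0.43, and the farthest was LINC00678 and ABHD12B, at 7.26.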

How the data were processed

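Bulk RNA-seq counts were analysed for 4 naive and 2 primed libraries. The authors trimmed reads with cutadapt 1.15 and Trim Galore 0.4.4, mapped them with Bowtie2 to Ensembl GRCh38 transcripts, coding and noncoding, and deposited whole counts per gene without normalization. Whether counting used the strand is not given in the sources used here. A further 23 columns hold libraries of other studies and were set aside. Identifiers that share a name were summed, which for clone-based names can join separate genes, so an alternative kept them apart, and 26 spike-in rows were left out.

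CPM were scaled with TMM. Groups were taken from the sample labels. Naive and primed libraries were compared without covariates with edgeR 4.0.16 in R 4.3.3 (quasi-likelihood test after filterByExpr on state), and p-values were adjusted over every tested gene by the Benjamini-Hochberg method. Exact permutation of 4 and 2 libraries has a smallest p of 0.0667 and was not used. On simulated data of this comparison with 200 changed genes among 25808 tested, edgeR recovered 78% of 2-fold and 100% of 4-fold changes with 7 false calls. The simulation gave all genes the same dispersion, below the common dispersion of 0.0563 in the data. It changed only well counted genes and far fewer than were called here, so it was an easier setting than the data. Parent-matched folds used a prior count of 0.5. Replicate numbers did not pair libraries, so the parental line served as the block in one alternative. Other alternatives covered scaling, DESeq2 1.42.0, limma-voom (limma 3.58.1), the filter, a sum of both AICAR libraries, and the omission of each library in turn.

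Gene models came from GENCODE release 44 on GRCh38, and repeat copies were found with blastn 2.17.0. All members were named, with the nearest protein-coding gene on each side, overlapping genes, lists as counts with examples, and the 3 genes closest in pattern among those of at least 1 CPM on average. Genes that start in a copy of the repeat were added after the values had been seen. The members and lists were chosen with earlier results of these data known. The repeat sequences themselves are not reported here.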

Additional observations from a re-analysis of the deposited data

Results flagged for a closer look

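ABHD12B in the VPA library stood apart from the other naive libraries. At 138 CPM, its gap to the next highest of the 4 naive libraries, 92.0 CPM in AICAR 1, was 0.855 of their whole range. Chance flags about 1 in 20 such groups, and 5 members were examined. VPA naive was 1.54 times CA-p38 naive for this gene (95% exact binomial interval 1.49 to 1.60, counting error only). With a single VPA library, the treatment and the library cannot be told apart.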

How the results depend on the processing

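All 5 members kept their direction and passed the threshold in each of 15 alternatives, which covered the scaling, the test, the filter, identifiers kept apart, the block, a sum of both AICAR libraries and the omission of each library in turn. Leaving out 1 library at a time, the log2 fold change ran from -0.99 to -0.85 for ESRG, from -1.43 to -1.11 for LINC-ROR, from -4.18 to -3.87 for LINC00678, from 2.07 to 2.47 for ABHD12B and from -0.86 to -0.62 for HHLA1. Over all alternatives the highest adjusted p was 0.00019 for ESRG, 0.024 for LINC-ROR, 2.09e-09 for LINC00678, 4.48e-05 for ABHD12B and 0.0017 for HHLA1. With the parental line as a replicate block, which ties each naive library to the line it came from, the log2 fold changes were -0.86 for ESRG, -1.24 for LINC-ROR, -4.05 for LINC00678, 2.21 for ABHD12B and -0.69 for HHLA1, and the block changed no call of a member. Many other genes also passed. Of all 26497 genes tested, 7165 were lower and 6893 higher in the main fit, and 6906 and 6514 with the block. With at least 10 counts in every library, 5981 were lower and 5944 higher of 19813. Where 1 primed library is left out, the other is assumed to vary like the naive libraries.

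Of 20 parent-matched folds, 7 were at least 2-fold lower (4 of LINC00678, 2 of LINC-ROR and 1 of ESRG) and 4 at least 2-fold higher (all of ABHD12B). Folds of the same gene are not separate members. By induction, 20.6% to 21.3% of all tested genes were at least 2-fold lower and 23.9% to 25.1% higher. With the mean of EOS and CA-p38 primed as the reference instead, 8 of the 20 folds were lower and 4 higher, and with a prior count of 2 or library totals the counts were 7 and 4. No fold changed direction in 60 recomputed values, of which 25 moved beyond their counting interval. The order of levels per length was the same with the longest annotated transcript and with library totals. Depth limited LINC-ROR most, with 120 counts in its lowest library.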
